A study of Mus musculus with 6 samples.

Results

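The nuclear genes for the subunits of oxidative phosphorylation were followed in C2C12 cells, a mouse myoblast line that fuses into myotubes when serum is lowered. Members were the genes whose symbols begin as those of complex I (Nduf followed by a, b, c, s or v and a digit), complex II (Sdha to Sdhd), complex III (Uqcr), complex IV (Cox4 to Cox8) and complex V (Atp5), together with Cycs, the gene of somatic cytochrome c. Assembly factors were left out. Only probe sets annotated to 1 symbol were used, and the brightest over the 6 arrays stood for each gene. This gave 82 of 18194 genes: 35 of complex I, 4 of complex II, 8 of complex III, 17 of complex IV, 17 of complex V, and Cycs. A symbol rule can also take in genes whose products work elsewhere. Cox7a2l, for one, encodes a factor that joins respiratory complexes to one another, and Ndufa4 encodes a protein now placed in complex IV.

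The study set 6 single arrays side by side. Parental cells were sampled in growth medium with 10% fetal bovine serum, and at day 0, day 2 and day 4 of differentiation, for which confluent cultures received medium with 2% horse serum. The other pair came from stably transfected lines at day 0, kept in 500 µg/ml G418 for 2 weeks. One carried a short hairpin RNA against Rp58 (shRp58), and the other a control that the labels call both a LacZ vector and a control hairpin. All 6 samples are C2C12 cells, and the labels do not say whether the transfected lines were pools or single clones. Rp58, with the current symbol Zbtb18, encodes a transcriptional repressor with zinc fingers.

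The respiratory chain sits in the inner mitochondrial membrane. Complex I takes electrons from NADH and complex II from succinate, complex III passes them to cytochrome c, complex IV hands them to oxygen, and complex V uses the resulting proton gradient to make ATP. Several small nuclear subunits of complex IV exist in a form made in most tissues and a form typical of heart and skeletal muscle, and the muscle forms appear as muscle cells mature.

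Values are log2 intensities, and a difference of 1 is a 2-fold difference. With 1 array in each group there is no replicate spread, so no difference was tested, and every count below describes these arrays only. The deposited values fall into 2 sets of different scale: the median of all probe sets was 8.26 to 8.27 on the 4 parental arrays and 7.15 on both arrays of transfected cells, so differences were taken within a set. Genes whose highest value reached 7.95, the median of all values, were kept, which left 13242 genes and 79 members. The other 3, Cox6b2, Cox7b2 and Ndufa4l2, stayed below that level on all 6 arrays. Most members were bright, with 66 of 82 averaging at least 12 and 30 at least 13. Of 10 muscle markers all were kept, with Des at 12.87 or more on every array. Of 19 measured markers of adipocytes, leukocytes, endothelium and heart muscle, 10 stayed below 7.95, among them Adipoq, Ptprc, Pecam1, Cdh5 and Myh6. The 9 that passed it were Retn, Ucp1, Fabp4, Cd3e, Adgre1, Kdr, Nkx2-5, Nppa and Tbx5, with Cd3e highest at 9.75 to 10.29 on the parental arrays, and none of them was 2-fold apart in any of the 5 comparisons.

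**Figure D1:**
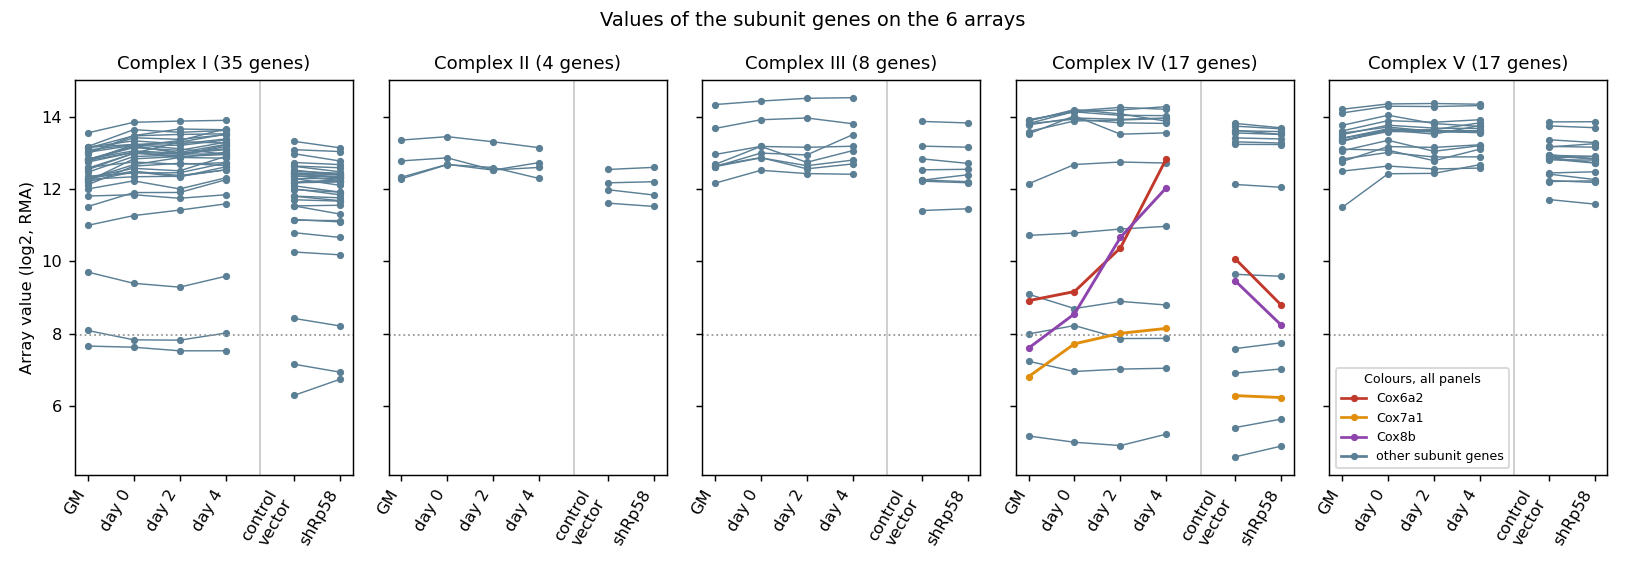
Log2 values of the members of complexes I to V by array, 1 panel for each complex, a dotted line at 7.95, lines joining the arrays of a set and a gap between the 2 sets because their scales differ (GM, growth medium). Most lines are flat, while Cox6a2 and Cox8b climb from 9.16 and 8.55 at day 0 to 12.84 and 12.04 at day 4.

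Cox6a2 and Cox8b were the members that moved most. Both encode small muscle-type subunits of cytochrome c oxidase, complex IV. At day 4 they stood 12.8-fold and 11.2-fold above day 0, and in the shRp58 line 2.43-fold and 2.33-fold below the control line. The other 76 members apart from Cox7a1, the third muscle isoform, lay between -0.47 and 0.53 log2 units at day 4 against day 0.

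Cox6a2, the heart and muscle form of subunit 6a, had log2 values that climbed from 8.91 in growth medium to 9.16 at day 0, then 10.37 at day 2 and 12.84 at day 4. It was 10.07 in the control line and 8.79 in the shRp58 line. The step from growth medium to day 0 was 0.25, the smallest of its parental steps, and the one from day 2 to day 4 was the largest, at 2.47 or 5.54-fold. Among the 13242 kept genes its day 4 difference from day 2 was the 10th highest, and its difference from day 0 the 28th highest. A second, dimmer Cox6a2 probe set went the same way, with 3.61 at day 4 against day 0 and -1.18 between the shRp58 and control lines.

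Cox8b, the muscle form of subunit 8, read 7.60 in growth medium, then 8.55 (day 0), 10.66 (day 2) and 12.04 (day 4). It read 9.46 in the control line and 8.24 in the shRp58 line. Its course was earlier than that of Cox6a2: it was already 0.95 higher at day 0 than in growth medium, gained 2.11 (4.33-fold) by day 2 and a further 1.38 (2.60-fold) by day 4. Its growth-medium value lies below the level of 7.95, so its difference there starts from a dim reading. The day 2 difference ranked 77th highest of 13242 for Cox8b and 247th for Cox6a2.

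Cox7a1, the muscle form of subunit 7a, did not share this course. Its single probe set gave 6.81, 7.72, 8.01 and 8.14 from growth medium to day 4, and 6.29 and 6.23 in the control and shRp58 lines. It was 0.91 higher at day 0 than in growth medium and 0.43 higher at day 4 than at day 0. Only its day 2 and day 4 values passed 7.95, so all of its differences involve dim readings and their sizes are not exact.

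The forms made in most tissues ran the other way after day 0, by much smaller amounts. Cox6a1 had values of 13.88 in growth medium and 14.20, 14.08 and 13.88 at days 0, 2 and 4, with 13.74 and 13.67 in the control and shRp58 lines. Cox8a had 13.53, 14.02, 13.52 and 13.55 in the parental arrays and 13.61 and 13.59 in the transfected lines. Cox7a2 had 13.92, 14.14, 14.04 and 14.03, then 13.55 and 13.51. All 3 were at their highest at day 0, and at day 4 they lay 0.32, 0.47 and 0.10 below it. A second bright probe set of Cox6a1 gave -0.59 and one of Cox7a2 gave -0.061. The Cox8a probe set is of a type that can bind related transcripts. A second bright Cox8a probe set read 13.71 at day 0 and 13.28 at day 4. The remaining, dim one moved in the opposite direction. At day 4 against day 0 its gap of 0.87 from the probe set used was the widest for any member. Only probe sets that reached the level required of kept genes were compared in this way.

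Differences within a probe set can be set beside each other even though levels of different probe sets cannot. At day 4 against day 0 the difference for Cox6a2 exceeded that for Cox6a1 by 4.00 log2 units, and that for Cox8b exceeded Cox8a by 3.96. For Cox7a1 over Cox7a2 the same quantity was 0.53. By day 2 it had reached 2.62 for the subunit 8 pair and 1.33 for the subunit 6a pair. From day 2 to day 4 the order was the other way round, with 1.34 for subunit 8 and 2.67 for subunit 6a.

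**Figure D2:**
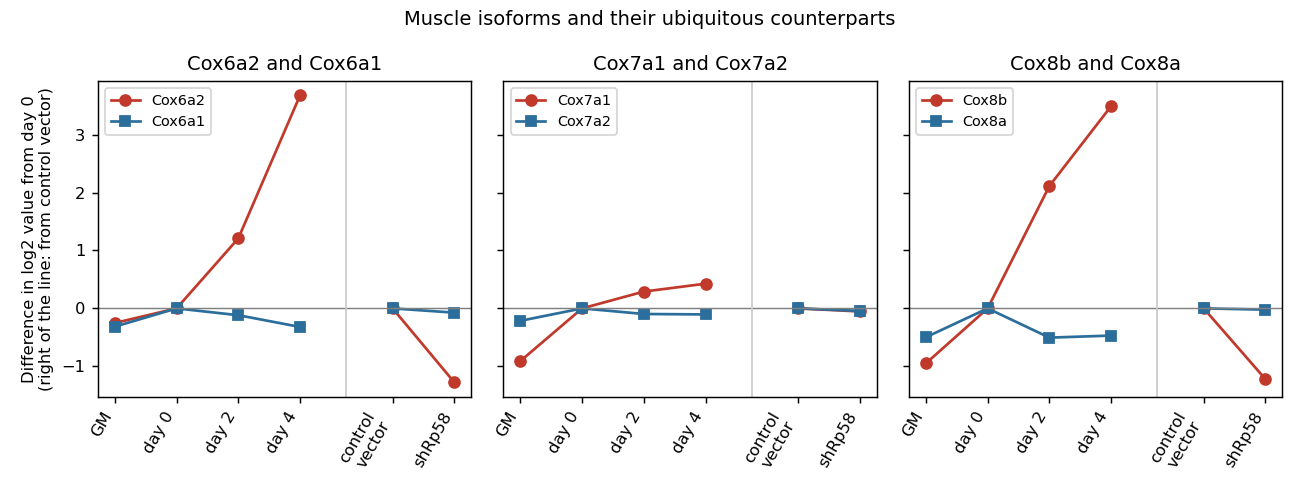
Change in log2 value from day 0 on the parental arrays, and between the control and shRp58 lines, for the muscle and the widely made forms of subunits 6a, 7a and 8. Cox8b leads at day 2 and Cox6a2 reaches the highest point at day 4, while of the partner genes Cox8a lies lowest, at -0.50 on day 2.

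The 250 bases before the start sites are printed for the isoform genes because these pairs of genes carry the main contrast in the data. They come from RefSeq, build GRCm38.p6, and are written 5′ to 3′ on the gene's strand, with matches to the searched motifs in capitals. Of the 82 members, 67 had an entry, in 72 windows, and Cox6a2 was not among them. Cox8b lies at chr7:140900447-140900696 (- strand), Cox8a at chr19:7217617-7217866 (- strand), Cox6a1 at chr5:115348959-115349208 (- strand), Cox7a1 at chr7:30183921-30184170 (+ strand) and Cox7a2 at chr9:79759854-79760103 (- strand).
Cox8b: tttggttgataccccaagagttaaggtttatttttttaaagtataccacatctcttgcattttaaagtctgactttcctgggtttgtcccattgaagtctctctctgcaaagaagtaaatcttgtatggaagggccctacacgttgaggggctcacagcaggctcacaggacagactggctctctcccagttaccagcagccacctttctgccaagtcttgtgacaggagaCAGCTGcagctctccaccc
Cox8a: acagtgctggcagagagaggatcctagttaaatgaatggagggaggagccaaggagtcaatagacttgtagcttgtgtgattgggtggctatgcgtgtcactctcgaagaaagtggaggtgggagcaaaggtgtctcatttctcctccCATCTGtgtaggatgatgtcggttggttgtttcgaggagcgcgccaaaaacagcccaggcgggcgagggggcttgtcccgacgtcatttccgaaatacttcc
Cox6a1: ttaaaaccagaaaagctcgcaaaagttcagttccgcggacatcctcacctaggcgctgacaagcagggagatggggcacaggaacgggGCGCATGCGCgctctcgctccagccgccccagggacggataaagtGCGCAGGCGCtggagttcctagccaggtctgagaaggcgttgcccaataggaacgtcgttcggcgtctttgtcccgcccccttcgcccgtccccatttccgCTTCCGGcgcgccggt
Cox7a1: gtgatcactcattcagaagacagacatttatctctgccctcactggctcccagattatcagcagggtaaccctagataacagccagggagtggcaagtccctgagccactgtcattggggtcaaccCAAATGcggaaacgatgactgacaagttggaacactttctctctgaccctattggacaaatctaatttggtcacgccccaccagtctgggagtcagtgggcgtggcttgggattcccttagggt
Cox7a2: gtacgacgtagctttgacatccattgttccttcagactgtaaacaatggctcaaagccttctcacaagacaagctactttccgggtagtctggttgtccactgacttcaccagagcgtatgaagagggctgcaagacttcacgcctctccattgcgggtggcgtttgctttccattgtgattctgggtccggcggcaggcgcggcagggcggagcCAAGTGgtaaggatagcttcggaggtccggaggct

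The motifs, searched on both strands, were the E-box CANNTG that myogenic helix-loop-helix factors bind, the MEF2 motif, NRF1 GCGCNTGCGC, the estrogen-related receptor (ERR) motif AAGGTCA, the ETS motif CCGGAAG and YY1 AANATGGC. None of these is contained in another. The capitals in Cox8b, Cox8a, Cox7a1 and Cox7a2 are an E-box each, beginning 19, 102, 124 and 35 bases before the start. Those in Cox6a1 are 2 NRF1 matches, at 162 and 117 bases, and an ETS match at 16 bases. The Cox8b window held 1 CpG at 47.2% G and C, and the Cox6a1 window 26 CpG at 62.8%, against a median over all 72 member windows of 14 CpG and 57.0%.

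Across the member windows, 16.7% held an NRF1 match against 3.74% of all 32851 windows, 16.7% against 6.91% an ETS match, and 8.33% against 3.91% a YY1 match. An E-box stood in 61.1% of member windows and 66.2% of all windows. The ERR motif stood in 6.94% against 4.08%. None of the 72 member windows and 2.92% of all windows held the MEF2 motif. Member windows were also richer in CpG than all windows, whose median was 6, and the NRF1 and ETS motifs contain CpG themselves, for which nothing was adjusted. These shares describe letters in the windows only.

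The members as a set changed little over the time course. The range over the 4 parental arrays had a median of 0.36 over the 79 kept members and 0.50 over all kept genes. For 59 members the range was under 0.5. It passed 1 for 4 members, Cox6a2, Cox8b, Cox7a1 and Atp5e. The highest parental array was day 4 for 40 members, day 0 for 28, day 2 for 7 and growth medium for 4. The counts by range and by highest array were not made for all kept genes, whose median range of 0.50 lies at the bound of 0.5. In whole cultures a change in the share of cells that have differentiated cannot be told apart from a change in RNA per cell.

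From growth medium to day 0, most subunit genes were slightly higher. The median member difference was 0.26 (1.20-fold), with 74 of 79 above 0, and the 5 below 0 were Cox4i2, Ndufb1, Ndufb4, Cycs and Atp5g1. Ndufb4 rests on a dim probe set here, and 2 bright ones annotated to it and to Ndufb4b and Ndufb4c gave 0.23 and 0.29. Over all kept genes the median was 0.098, 61.2% were above 0 and 38.7% below. No member reached 2-fold in either direction, against a background of 2.91% higher and 0.317% lower. At 1.5-fold, Cox8b, Atp5e, Cox7a1 and Ndufv3 were higher and none lower, where 10.9% of all genes were higher and 2.94% lower. Other bright genes were also mostly above 0: of 1147 kept non-members averaging at least 12, 82.7% were above 0 with a median of 0.22, against 97.0% and 0.27 for the 66 bright members. The size of this step depended on scaling. The count above 0 was 62 of 79 (with 50.3% of all genes) after loess on level and 61 of 79 (with 46.1%) after quantile normalization, and the median was 0.097 and 0.098.

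From day 0 to day 2, Cox8b and Cox6a2 passed 2-fold higher and no member lower, against 2.67% and 2.96% of all genes, and the same 2 members passed 1.5-fold, against 6.68% and 8.34%. The median member difference was -0.051, with 28 of 79 above 0, where 48.0% of all genes were above 0 and 52.0% below. That sign was not stable: loess gave 47 members above 0 (with 49.9% of all genes) and a median of 0.022, and quantile normalization 44 (with 54.5%) and 0.0077. Without the 3 muscle isoforms the other 76 members ran from -0.50 for Cox8a to 0.31 for Ndufa13.

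From day 0 to day 4, Cox6a2 and Cox8b were again the members past 2-fold and past 1.5-fold higher, and none was lower. Of all genes, 3.83% were 2-fold higher and 5.66% lower, and at 1.5-fold 8.36% and 14.0%. The median member difference was 0.041, with 48 of 79 above 0, against 45.2% of all genes above 0 and 54.8% below, and it stayed above 0 under the other 3 scalings. Of the 79 members, 5 changed sign with scaling. The members were also closer together than other bright genes: the robust SD of the differences, from the median absolute deviation, was 0.16 over the 66 bright members and 0.38 over the 1147 bright non-members.

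From day 2 to day 4, Cox6a2 and Cox8b passed 2-fold and 1.5-fold higher, with no member lower, against 0.808% in each direction at 2-fold and 2.62% higher and 4.19% lower at 1.5-fold. The median was 0.070, and 57 of 79 members were above 0, where 43.9% of all genes were above 0 and 56.0% below. After loess and quantile normalization 44 and 47 members were above 0, with 50.9% and 46.2% of all genes.

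**Figure D3:**
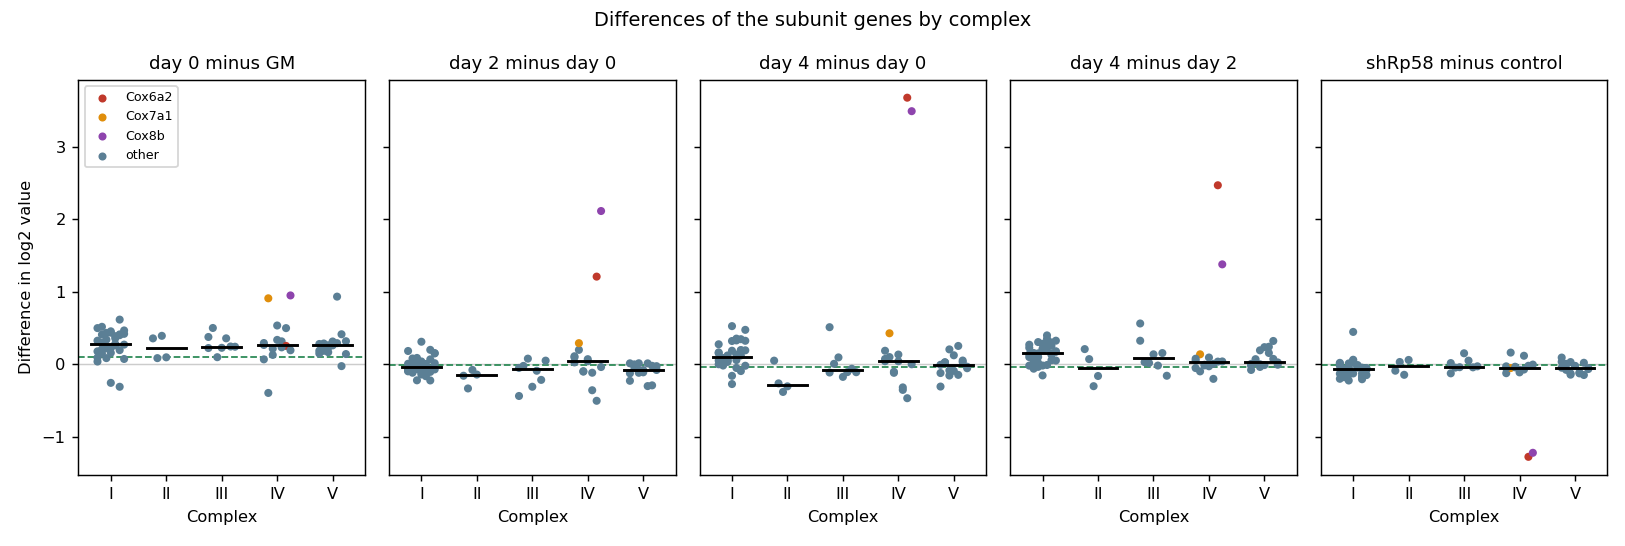
Difference in log2 value for each kept member (points) by complex in the 5 comparisons, with black bars at each complex's median and the dashed line at the median of all kept genes (GM, growth medium). Outside complex IV no point reaches 1 in either direction, and Cox6a2 and Cox8b stand apart at 3.68 and 3.49 in the day 4 panel.

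Complex I, the NADH dehydrogenase, tended upward by day 4. Its median difference from day 0 was 0.10, with 27 of 34 kept genes above 0, where 45.2% of all kept genes were above 0. Under the other scalings 28 to 30 were above 0, with 45.8% to 52.1% of all kept genes. The core subunits of complex I take electrons from NADH through a flavin and iron-sulphur clusters. The 6 of them in the list (Ndufs1, Ndufs3, Ndufs7, Ndufs8, Ndufv1 and Ndufv2) were all above 0 with a median of 0.19. The 28 kept accessory subunits, which surround the core, had a median of 0.10.

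Ndufs1, which holds several of the clusters, read 11.52 in growth medium and 11.90, 11.91 and 12.26 at days 0, 2 and 4. It read 11.14 in the control and 11.13 in the shRp58 line. Day 4 was thus the highest parental array, 0.35 above day 0, and the lines were nearly level. Ndufv1, the flavin-bearing subunit, was 0.32 higher at day 4 and Ndufs3 0.35 higher, while Ndufs8 and Ndufs7 were 0.031 and 0.037 higher, the latter with -0.038 on a second bright probe set.

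Among accessory subunits, Ndufa13, also known for a role in cell death, went from 12.54 to 12.99, 13.30 and 13.52 over the parental arrays, and read 12.43 and 12.30 in the transfected lines. Ndufb7 went from 12.77 to 13.19, 13.34 and 13.67, and read 12.63 and 12.48. Both were higher on each later parental array, 0.53 and 0.47 above day 0 at day 4, and a second Ndufb7 probe set gave 0.55. Ndufa13 rests on 1 probe set, and dimmer ones annotated to it and to Yjefn3 gave 0.16 and 0.028. At the other end Ndufc2 read 13.08, 13.23, 13.11 and 12.96, so that day 4 was its lowest parental array at 0.27 below day 0, and 2 further bright Ndufc2 probe sets gave -0.29 and -0.44. Ndufa8 and Ndufb6 lay 0.16 and 0.095 below day 0, and a second bright Ndufb6 probe set gave 0.0021.

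Other complex I genes were at the ends of single steps. Ndufv3 was 0.62 higher and the dimmer Ndufb1 0.31 lower at day 0 than in growth medium. Ndufb6 was 0.22 lower at day 2 than at day 0. Ndufa9 was 0.40 higher at day 4 than at day 2. Ndufb4 is stood for by a dim probe set with values of 6.30 to 8.09. The 2 bright probe sets that share its symbol with Ndufb4b and Ndufb4c were left out by the rule, and gave 0.22 and 0.27 at day 4 against day 0.

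Complex II, succinate dehydrogenase, which also works in the citric acid cycle, differed from complex I in sign at day 4. Its median was -0.29, and -0.24 to -0.28 under the other scalings. Of its 4 genes 3 were below 0, where 54.8% of all kept genes were below 0. Sdha, the flavoprotein, read 12.33 in growth medium and 12.68, 12.52 and 12.73 at days 0, 2 and 4, so that its day 4 difference was 0.049. Sdhb, the iron-sulphur subunit, read 12.78, 12.86, 12.53 and 12.60, 0.26 below day 0 at day 4. The membrane anchors were lower too: Sdhc read 12.28, 12.68, 12.60 and 12.29, and Sdhd 13.36, 13.45, 13.31 and 13.14. For Sdhc the loss of 0.38 fell mostly between day 2 and day 4, and for Sdhb mostly before day 2. A second Sdhc probe set gave -0.26, and a dimmer second Sdhd one gave 0.17.

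Complex III, the cytochrome bc1 complex, had a median of -0.086 at day 4, with 5 of 8 genes below 0, near the 54.8% of all kept genes. The count was the same under the other 3 scalings. Uqcrq, a small subunit near the haems of cytochrome b, stood apart with 12.62, 13.00, 12.94 and 13.51 over the parental arrays and 12.84 and 12.71 in the lines. Its gain of 0.56 fell between day 2 and day 4, the highest of the members without the muscle isoforms. It rests on 1 bright probe set, and the 3 others of the gene averaged 7.33 to 8.15 and gave -0.31 to 0.12 at day 4 against day 0. Uqcr10 dipped at day 2, with 13.18 at day 0, 12.74 at day 2 and 13.06 at day 4. The core protein Uqcrc1 and the hinge protein Uqcrh were 0.18 and 0.11 lower at day 4 than at day 0, and Uqcrb 0.094 higher. Uqcr11 was 0.50 higher at day 0 than in growth medium and 0.0051 higher at day 4 than at day 0. Cycs, which carries electrons from complex III to complex IV, read 13.81, 13.77, 13.64 and 13.69, so that day 4 was 0.078 below day 0. Its other 2 probe sets with a mean above 7.95 gave larger differences from day 0, of -0.38 and -0.59 at day 2 and -0.40 and -0.26 at day 4.

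The rest of complex IV was flat as a group. Without the muscle isoforms, 12 genes had a median of 0.020 at day 4 against day 0, with 6 above and 6 below 0. Of all kept genes, 45.2% were above 0 and 54.8% below. Cox4i1, the common form of subunit 4, was 0.072 higher, and Cox4i2, the form best known from lung, 0.098 higher on a dim probe set. Cox4i2 was the member with the lowest difference from growth medium to day 0, at -0.40. Cox7a2l was 0.53 higher in that step and 0.041 higher at day 4 than at day 0. Cox8c, a form best known from testis, was 0.19 higher at day 4, and Cox6b1 -0.0012 with a sign that changed with scaling. Cox7c lay 0.35 below day 0, on a dim probe set with values of 6.91 to 8.22. Its other probe set, below 7.95 on every array, gave -1.34.

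Complex V, the ATP synthase, had a median of -0.0084 at day 4 against day 0, with a sign that turned under loess. Of its 17 genes 8 were above 0, near the 45.2% of all kept genes. Atp5e, the epsilon subunit of the F1 head, had the highest step from growth medium to day 0 of any member outside the muscle isoforms. Its values were 11.49, 12.42, 12.43 and 12.68 over the parental arrays and 11.71 and 11.58 in the lines, so the growth-medium array stood 0.93 below day 0 and the later ones changed by 0.25 at most. Atp5a1, the alpha subunit, read 13.76, 14.04, 13.81 and 13.73, 0.31 lower at day 4 than at day 0, but a second bright probe set gave -0.012. The catalytic beta subunit, Atp5b, read 14.11, 14.29, 14.28 and 14.31. Atp5pb and Atp5j2 of the stalk and membrane part were 0.20 and 0.12 higher at day 4 than day 0, but second bright probe sets gave 0.012 and -0.0011. Atp5c1 and Atp5k were 0.16 and 0.15 lower. Atp5g1, 1 of 3 genes for the c subunit of the rotor ring, dipped at day 2 with 13.08, 12.78 and 13.10 at days 0, 2 and 4, while Atp5g2 and Atp5g3 were within 0.035 of day 0 at both later days.

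The hairpin comparison set the shRp58 line beside the control line at day 0. Zbtb18, read by 1 probe set, was 11.69 in the control line and 11.16 in the shRp58 line, 0.53 lower. On the parental arrays it went from 11.18 in growth medium to 11.88, 12.86 and 13.06 at days 0, 2 and 4. Because the sets differ in scale, the median of kept genes is given too: 10.13 in parental day 0 cells, 9.09 in the control line and 9.05 in the shRp58 line. Relative to that median, Zbtb18 was lowest in parental day 0 cells and highest in the control line, as a description only.

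In the shRp58 line Cox6a2 was 1.28 and Cox8b 1.22 log2 units lower than in the control line, and no other member was 1.5-fold apart. They ranked 42nd and 50th lowest of 13242 kept genes. No member was higher at 2-fold or 1.5-fold. Of all kept genes, 0.619% were 2-fold lower and 0.0529% higher, and at 1.5-fold 2.25% and 1.43%. Their partners differed by -0.074 for Cox6a1 and -0.022 for Cox8a, the latter with a sign that changed with scaling, so the muscle isoforms were lower relative to them by 1.20 in each pair. Cox7a1 was 0.053 lower, at values of 6.29 and 6.23 that are below 7.95.

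The remaining members were close to level between the lines. The median over the 79 was -0.048, with 20 above 0, where 47.5% of all genes were above 0 and 51.3% below. After loess 31 (with 50.2% of all genes) and after quantile normalization 34 (with 54.1%) were above 0, and the median was -0.015 and -0.0081. Leaving the muscle isoforms aside, Ndufb3 was lowest at -0.23 and the dim Ndufb4 probe set highest at 0.45, against -0.13 and -0.23 for the 2 bright probe sets that share its symbol. In complex III Uqcrc1 was highest at 0.15, and in complex V Atp5l was lowest at -0.15 and Atp5a1 highest at 0.091. For Atp5a1 a second bright probe set gave 0.11 and a dim one -0.49.

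Muscle markers were also lower in the shRp58 line. All 10 were below 0 with a median of -0.90, and 5 (Ckm, Mb, Myh3, Mymk and Tnnt3) were at least 2-fold lower, with Ckm at -1.27 and Mb at -1.57. Of all kept genes, 51.3% were below 0 and 0.619% were 2-fold lower. On the parental arrays 7 of the 10 were at least 2-fold higher and 1, Myf5, at least 2-fold lower at day 4 than at day 0, where 3.83% of all genes were higher and 5.66% lower. Their part in the Cox6a2 and Cox8b differences was not tested.

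The control line itself stood above parental day 0 cells for these 2 genes. Since the sets differ in scale, each array was set to the median of its kept genes, and the values are a description only. On that scale Cox6a2 was at -0.97 in parental day 0 cells, 0.97 in the control line and -0.26 in the shRp58 line, and Cox8b was at -1.58, 0.36 and -0.82. The control line was thus 1.94 and 1.95 above parental cells, and the shRp58 line 0.70 and 0.76 above them, where the median over the 79 members was 0.32 and 0.31. No other member was 2-fold above parental day 0 in the control line. The muscle markers stood higher there as well: on the same scale 9 of 10 were above parental cells in the control line, 7 of them at least 2-fold, with a range from -0.23 for Myf5 to 2.22 for Tnnt3 and Ckm at 1.95. In the shRp58 line the range was -0.27 to 0.92 and none reached 2-fold. The matching shares of all kept genes were not computed for this comparison, so its counts have no background beside them.

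The hairpin differences were also set beside those of the time course, which share no array with them. Across the 79 members Pearson's r between the hairpin difference and the day 4 difference from day 0 was -0.88 and Spearman's rho -0.45. Without Cox6a2 and Cox8b r was -0.28 and rho -0.40 over 77 genes. Against the day 2 difference r was -0.82 with both genes and -0.27 without. The genes share the same arrays, so these values describe the arrays and carry no p-value. The correlations were not computed over all kept genes, so they cannot be called particular to the members.

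**Figure D4:**
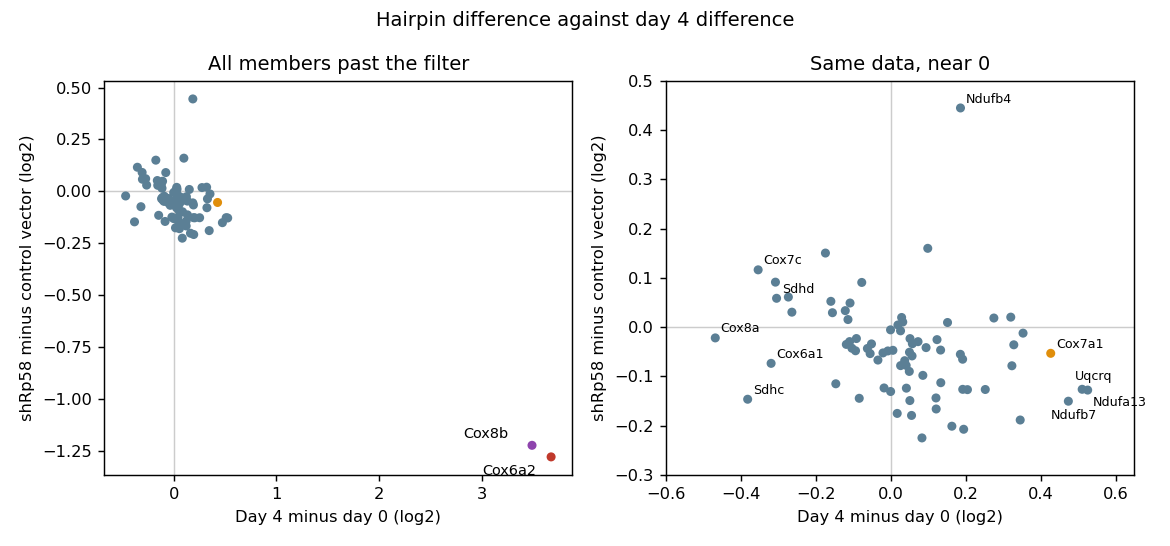
Difference of the shRp58 from the control line (vertical) against the difference of day 4 from day 0 (horizontal), both in log2 units, for the 79 kept members, with the region near 0 enlarged at the right. Cox6a2 and Cox8b lie alone at the lower right, and r is -0.88 with them and -0.28 without.

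Genes that act around the chain were counted at 2-fold in the same way. Of 44 kept assembly factors, which help build the complexes, Ndufaf3 of complex I was 1.13 higher at day 0 than in growth medium, and Uqcc1 of complex III, with values of 10.18, 10.23, 11.27 and 11.78 over the parental arrays, was 1.03 higher at day 2 and 1.55 at day 4 than at day 0. No other passed 2-fold in any of the 5 comparisons. Of all kept genes, 2.91% were 2-fold higher at day 0 against growth medium, 2.67% at day 2 against day 0 and 3.83% at day 4 against day 0. The list's median at day 4 against day 0 was -0.068, and that of all kept genes was -0.0435. Uqcc1 was 0.25 lower in the shRp58 line.

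Of 25 kept regulators of mitochondrial gene expression, Ppargc1a passed 2-fold, in 1 comparison, where 2.67% of all kept genes were 2-fold higher. It encodes the coactivator PGC-1 alpha and read 7.24, 7.39, 8.41 and 7.96 over the parental arrays and 6.45 and 6.42 in the lines, so it was 1.02 higher at day 2 than at day 0, from a dim reading. At day 4 against day 0 the receptor gene Esrra was at -0.37, Nrf1 at -0.38 and the mitochondrial transcription factor gene Tfam at -0.17. The list ran from -0.62 to 0.80 in that comparison, with Prkaa2 of the AMP-activated kinase highest. Its median was -0.17, with 17 of 25 below 0, where 54.8% of all kept genes were below 0.

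Of 13 kept citric acid cycle genes 9 were below 0 at day 4 against day 0, where 54.8% of all genes were, with a median of -0.16. Idh2, a mitochondrial isocitrate dehydrogenase, was 1.06 lower in that comparison, where 5.66% of all kept genes were 2-fold lower. Of 11 genes of pyruvate entry, the kinase gene Pdk1 was 1.05 lower at day 4 than at day 0. Pdk4, another kinase that shuts off pyruvate dehydrogenase, was 1.14 lower at day 0 than in growth medium and 1.22 lower at day 4 than at day 2. Pdp1, the phosphatase that turns the enzyme on, was 1.20 higher at day 0 than in growth medium. Of all kept genes, 0.317% were 2-fold lower and 2.91% higher at day 0 against growth medium. The share 2-fold lower was 0.808% at day 4 against day 2 and 5.66% at day 4 against day 0. None of 11 carriers and porins passed 2-fold in the 5 comparisons, where 0.0529% to 5.66% of all kept genes did in a given direction. Of the further chain genes that the symbol rule leaves out, Cyc1 and Ndufab1 for subunits, Uqcc3 for a complex III assembly factor and Atpif1 did not pass it either. Atpif1, the inhibitor of ATP synthase, was 0.67 lower at day 2 than at day 0. In the shRp58 line none of the genes on these lists was 2-fold apart from the control, where 0.619% of all kept genes were lower and 0.0529% higher.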

How the data were processed

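Transcript levels were measured on 6 Affymetrix arrays, 1 for each group. The authors deposited RMA values (log2) from 10 ug of cRNA, per the series' design text. Which software and version was used, and whether the arrays were normalized jointly, is not given in the sources used here. Of 45101 probe sets, 34958 carried 1 gene symbol in the platform annotation, 932 several and 9211 none. Only the first were used, and 9 probe sets with several symbols, of which at least 1 fits the member rule, were left out. Ndufa11 and Ndufs6 of complex I had no probe set with 1 symbol, so they are not among the members. Their bright probe sets, shared with Ndufa11b and Ndufs6b, gave 0.16 and -0.12 at day 4 against day 0. Members had 168 probe sets, with 33 genes read by 1. All 82 Entrez IDs were found in the RefSeq table with the same symbols.

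The members and lists were chosen with earlier results of these data known. Named genes were the isoform genes, members at least 2-fold apart in any comparison, the 3 highest and 3 lowest of each complex at day 4 against day 0, the highest and lowest of each complex in the other comparisons, list genes at least 2-fold apart, and Ppargc1a, Esrra, Nrf1 and Tfam. A few further members are named for their roles, chosen after their values were seen. Differences, counts at 2-fold and 1.5-fold, and medians were computed in Python 3.11.15 (numpy 2.4.6, pandas 2.3.3) and checked on simulated data. Alternatives were equal array medians, quantile normalization within a set, loess on mean level (statsmodels 0.14.6, span 0.3), differences relative to the median of all genes, other filters and probe-set rules. Precision is limited by the single array in each group.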

Additional observations from a re-analysis of the deposited data

How the results depend on the processing

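No paired analysis was possible because each group holds 1 array and the groups share no pairs of replicates. For the same reason no array could be left out. Scaling moved medians by over 0.1 in the day 0 step from growth medium, and the member median changed sign with scaling in the day 2 step from day 0. Quantile normalization gave medians of 0.083 for complex I, 0.037 for complex II, 0.072 for complex III, 0.098 for complex V and 0.098 for all members. Loess gave 0.085, 0.046, 0.071, 0.097 and 0.097. In that step 1 member, Cox8b at 1.03, was 2-fold higher after loess, and 4 were higher at 1.5-fold, a threshold that the difference of Cox7a1 over Cox7a2 also passed, at 0.69. The other counts kept within 1.5 times their value, the other medians moved by less than 0.1 and the other isoform differences stayed on their side of 2-fold, under equal array medians, medians over probe sets, no filter, a filter on the mean, differences relative to all genes and, chosen after seeing the data, without probe sets of the x_at and s_at types. The filter on the mean left out Cox7a1, so its values are not given there. The causes were not tested. Quantile normalization moved the median of all genes in the day 0 step from 0.098 to -0.031. The sign changed with scaling for 14, 23, 5, 20 and 14 of 79 members in the comparisons of day 0 with growth medium, day 2 with day 0, day 4 with day 0, day 4 with day 2 and the shRp58 with the control line. Members read by several kept probe sets differed between these by a median of 0.057 to 0.062.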
